A study of Mus musculus with 6 samples.

Results

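Adult retinal ganglion cells were compared with those of postnatal day 5 (P5), which takes in 4 of the 6 samples of the series: 2 Adult and 2 P5, chosen by their age labels. All animals were wild-type mice of the strain labelled C57/6NCrl, and the labels name no treatment. The P5 cells came from the day 5 retina and the Adult cells from animals aged 8 weeks. At both ages the cells were caught on antibody to Thy1 after macrophages had been panned away, and the sample protocol adds a depletion of amacrine cells. The other 2 samples, from embryonic day 18 (E18), entered the fit as a further source of the spread between libraries and are not described. Whether the replicate libraries stem from different animals is not stated in the labels, and p-values therefore reflect only how far these samples spread, which may be technical.

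Retinal ganglion cells (RGCs) are the output neurons of the retina and send their axons through the optic nerve to the brain. At P5 their axons have reached the brain and are still being refined, the light-sensitive outer retina is unfinished, and the eyes are closed. In the adult the same cells drive spikes along a myelinated nerve, receive input from bipolar and amacrine cells, and regrow an injured axon poorly. Thy1 is the surface antigen long used to catch them.

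Levels are isoform FPKM summed per gene symbol, and a change is the Adult minus P5 difference of log2(FPKM + 1) from limma, called at a Benjamini-Hochberg adjusted p under 0.05. Of 14390 genes tested, 3767 were called higher in Adult (26.2%) and 4843 lower (33.7%). These shares are the background for every count of list members in the main fit. The median change of all genes was -0.07. Small changes depended on the scale. With library totals made equal (TPM) the median became -0.76, with 1709 genes called higher (11.9%) and 8603 lower (59.8%). A common protein-coding total gave 0.20, with 5270 higher (36.6%) and 3356 lower (23.3%). List counts under either scaling stand against the shares of that scaling. The equal-total counts rest on sums in which 4 small RNAs (Rn7sk, Rmrp, Rpph1 and Rny1, picked after their values were seen) made up 3.5% and 4.3% at P5 against 43.2% and 44.3% in Adult. Without these 4, summed FPKM were 477780 and 464585 at P5, with 454564 and 476125 in Adult. The change was at least 2 on the log2 scale for 743 of the genes called higher and 519 of those called lower. The depth of the libraries is unknown, because FPKM keep no read counts. The sex of the animals is not given in the labels used here: Xist, made from the inactive X of females, measured 17.2 and 18.8 FPKM at P5 against 0 and 0.00243 FPKM in Adult, so sex and age cannot be told apart for genes that differ by sex. Ddx3y, a gene of the Y chromosome, lay at 8.04 and 16.3 FPKM at P5 against 23.4 and 25.6 FPKM in Adult, and both genes were looked up after their values were seen.

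Most genes of other retinal cells were low at P5 and abundant in Adult. The 22 rod genes tested were called higher, with a median change of 5.37, and so did 9 of 10 cone genes, 15 of 15 bipolar cell genes, 13 of 15 amacrine cell genes and 14 of 16 genes of Müller glia, the radial glia of the retina; leaving out either Adult library gave 12 of the 16. Over the P5 and E18 libraries alone the mean was under 1 FPKM for 21 of the 22 rod genes, 7 of the 10 cone genes, 9 of the 15 bipolar genes, 6 of the 15 amacrine genes and 5 of the 16 Müller genes. These were tested only through their Adult level, which largely fixed that they rose, so the counts are a description. Summed over the tested genes of each list, rod RNA went from 14.9 and 12.3 FPKM at P5 to 7121 and 898.3 FPKM in Adult replicates 1 and 2. The amacrine sums went from 27.9 and 22.5 to 854.7 and 1061 FPKM, and the Müller sums from 240.4 and 248.6 to 1687 and 2009 FPKM. Bipolar sums of 27.3 and 18.2 FPKM at P5 stood against 209.1 and 197.4 FPKM in Adult, and cone sums of 5.72 and 4.21 FPKM against 135.0 and 121.9 FPKM.

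Peripherin 2 (Prph2), which shapes the rims of the rod's outer segment discs, measured 0.114 and 0.0568 FPKM at P5 against 454 and 61.2 FPKM in Adult (log2 change 7.28, SE 0.83, adjusted p = 6.01e-04). It was far higher in Adult replicate 1 than in replicate 2, and both Adult libraries were far above P5. Gad1, the enzyme that makes GABA in amacrine cells, measured 0.557 and 1.24 FPKM at P5 against 298 and 449.7 FPKM in Adult (log2 change 7.62, SE 0.77, adjusted p = 3.84e-04). Slc6a9, the glycine transporter of the other large amacrine class, measured 4.15 and 3.68 FPKM at P5 against 226 and 167 FPKM in Adult. Glul, the glutamine synthetase of Müller glia, measured 94.4 and 103 FPKM at P5 against 616 and 702 FPKM in Adult (log2 change 2.73, SE 0.11, adjusted p = 2.82e-05). Each of these 3 genes was high in both Adult libraries, with no overlap between ages, which the rule of naming largely fixed. Not all amacrine types were seen: Chat, the defining enzyme of the cholinergic amacrine cell, was listed at 0.022 and 0.123 FPKM at P5 against 0.0296 and 0.0199 FPKM in Adult, and its transporters Slc18a3 and Slc5a7 stayed under 1 FPKM in all 4 libraries (these 3 were chosen after their values were seen). Of 15 genes of microglia and macrophages 1 is listed, C1qa, which was not tested, at 0 at P5 and at 1.25 and 0.326 FPKM in Adult. Of 4 oligodendrocyte genes tested none was called higher and 2 were called lower (50%), against 33.7% of all genes. Among the lower was Mbp, a myelin protein, at 7.82 and 10.3 FPKM at P5 against 5.08 and 5.54 FPKM in Adult, a call lost without Adult replicate 1. Of 15 endothelial and pericyte genes 4 are listed. The 3 tested were called higher, against 26.2% of all genes. Among them were the VEGF receptors Kdr, at 19.1 and 23.7 FPKM in Adult, and Flt1, at 4.82 and 7.49 FPKM. Over the P5 and E18 libraries alone 2 of the 3 had a mean under 1 FPKM. Those 2 were tested only through their Adult level, so this count too is a description.

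**Figure D1:**
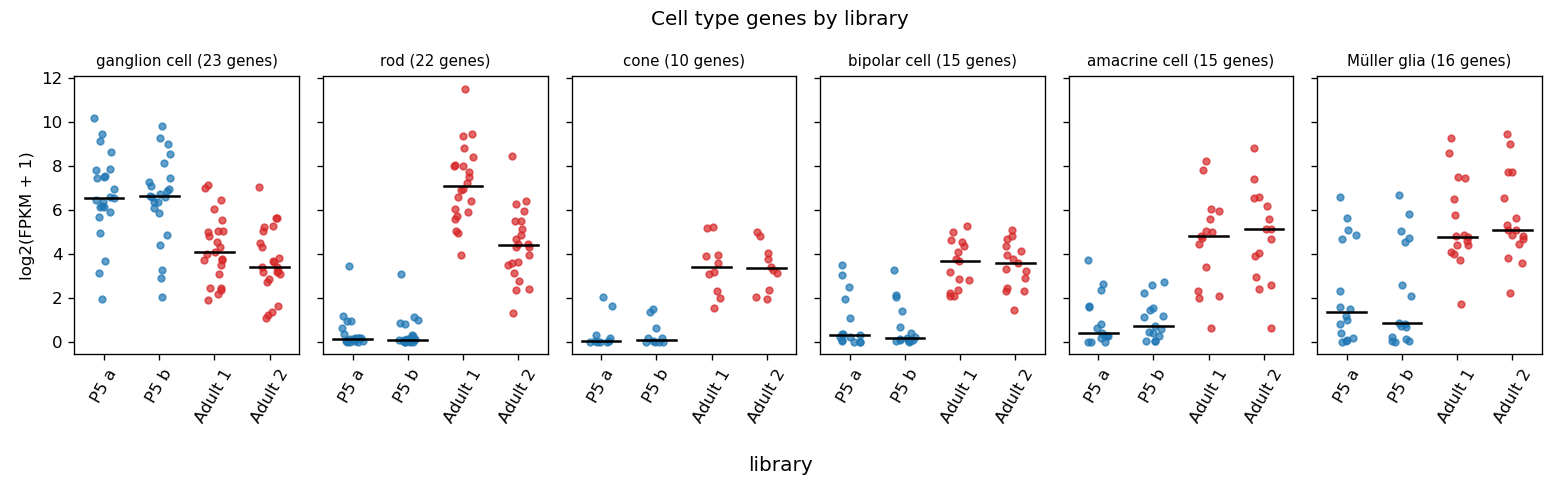
Levels of cell type genes in the 4 libraries. Each point is 1 gene of a list, the vertical axis is log2(FPKM + 1) and the bar is the median of the list. Ganglion cell genes sit lower in both Adult libraries than at P5, and rod genes stand highest in Adult replicate 1.

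The Adult libraries differed from each other by cell type. The median Adult replicate 1 minus replicate 2 difference, on the log2 scale, was 2.86 for rod genes, with all 22 higher in replicate 1, and 0.71 for ganglion cell genes, with 19 of 23 higher in replicate 1. It was -0.42 for amacrine genes (12 of 15 higher in replicate 2), -0.28 for Müller genes (14 of 16 higher in replicate 2), -0.10 for bipolar genes and 0.01 for cone genes. Over all genes tested the median was 0.00, and 86.5% lay within 0.5 of each other. Among the genes called lower 94.1% lay within 0.5, and among those called higher 81.2%, with 214 at least 1 higher in replicate 1 and 28 at least 1 higher in replicate 2. In bulk samples, fewer ganglion cells and less RNA of a gene per ganglion cell cannot be told apart, and the part of rod, amacrine and glial RNA in the changes that follow was not tested. For that reason most groups below are given with how their members compare between the Adult libraries. Near-equal Adult libraries do not set a gene apart from the RNA of other cells. Of the called genes, 13 of 14 for Müller glia, 9 of 9 for cones and 11 of 15 for bipolar cells lay within 0.5. So did 7 of 13 for amacrine cells, 7 of 20 for ganglion cells and 0 of 22 for rods.

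**Figure D2:**
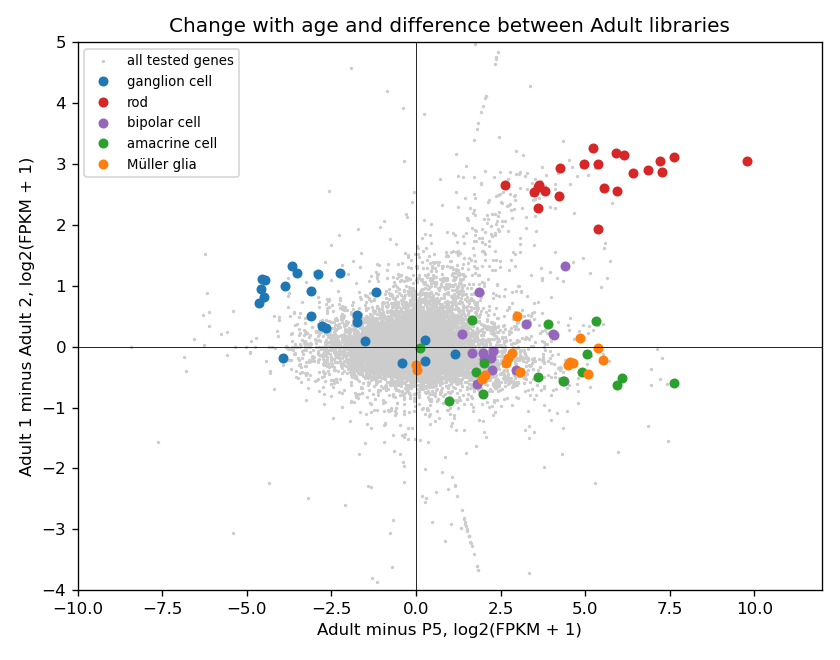
Change from P5 to Adult (horizontal, log2) against the Adult replicate 1 minus replicate 2 difference (vertical, log2) for tested genes of 5 cell type lists, over all tested genes in grey, of which the most extreme lie outside the axes. Rod genes lie far up on the right, amacrine and Müller genes on the right near 0, and most ganglion cell genes on the left above 0.

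Of 24 ganglion cell genes 23 are listed and tested, and 19 were called lower in Adult and 1 higher, against 33.7% and 26.2% of all genes. Their median change was -2.90, and it stayed negative under the other scalings, between -3.66 and -2.59. The list's median level went from 91.0 and 97.0 FPKM at P5 to 15.9 and 9.60 FPKM in Adult. The transcription factors that give the cells their identity fell furthest. Pou4f2 (Brn3b), which directs ganglion cell differentiation, measured 91 and 105 FPKM at P5 against 4.104 and 2.12 FPKM in Adult (log2 change -4.63, SE 0.23, adjusted p = 4.79e-05). Pou4f1 (Brn3a) measured 224 and 282 FPKM at P5 against 14.7 and 6.28 FPKM in Adult (log2 change -4.56, SE 0.34, adjusted p = 1.45e-04). Isl2, found in ganglion cells with particular targets in the brain, measured 72.02 and 94 FPKM at P5 against 4.53 and 1.598 FPKM in Adult, and Pou4f3 and Irx2 changed by -4.57 and -4.49. In all 5 genes Adult replicate 1 stood above replicate 2, by 0.71 (Pou4f2) to 1.11 (Pou4f1) on the log2 scale, and both stood far below P5. Rbpms, the RNA-binding protein used to count ganglion cells in whole retinas, measured 177 and 172 FPKM at P5 against 15.9 and 7.45 FPKM in Adult (log2 change -3.88, SE 0.30, adjusted p = 1.56e-04). Sncg (gamma-synuclein) measured 698 and 619 FPKM at P5 against 86.6 and 36.99 FPKM in Adult, and Slc17a6, the vesicular transporter that makes these cells glutamatergic, measured 186 and 134 FPKM at P5 against 31.2 and 13.01 FPKM in Adult.

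The fall was uneven within the list. Thy1, the antigen of the panning, measured 391 and 369 FPKM at P5 against 138 and 129 FPKM in Adult (log2 change -1.51, SE 0.19, adjusted p = 8.94e-04), so it kept a larger share of its P5 level than the Pou4f genes and was nearly equal in the Adult libraries. Chrna6, a nicotinic receptor subunit of ganglion cells, changed by -1.74, and Ebf3 by -1.75. Tusc5 changed by -1.17, a call that was lost without Adult replicate 2. Nefh, the heavy neurofilament subunit of large mature axons, measured 11.7 and 8.49 FPKM at P5 against 12.7 and 11.7 FPKM in Adult, and Chrnb3, the partner of Chrna6, lay at 29.8 and 19.98 FPKM at P5 against 26.98 and 32.1 FPKM in Adult; neither was called, and the sign of both turned negative with equal library totals. Ebf4, a factor of the same family as Ebf1 and Ebf3, was the member that rose, from 2.89 and 3.05 to 7.38 and 8.09 FPKM (log2 change 1.14, SE 0.14, adjusted p = 7.62e-04). Over all genes, 162 (3.35% of those called lower) fell further than the median of the ganglion cell list. So did 11 of the 19 ganglion cell genes called lower (57.9%). This median, taken from the same data, is only a yardstick for the depth of falls below. A gene beyond it may still have fallen less than many ganglion cell genes.

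Genes of ganglion cell subtypes moved in both directions. Of 24 tested, 12 were called lower (50%) and 6 higher (25%), against 33.7% and 26.2% of all genes, so the rises were near that share. Satb1, a factor of direction-selective ganglion cells, measured 29.8 and 31.8 FPKM at P5 against 7.68 and 6.42 FPKM in Adult (log2 change -1.99, SE 0.12, adjusted p = 8.81e-05). Foxp2, which marks a group of small cells, measured 13.02 and 9.47 FPKM at P5 against 1.14 and 0.687 FPKM in Adult. Eomes and Opn4, the factor and the pigment of intrinsically photosensitive cells, changed by -2.19 and -2.40, and were named after their values were seen. Rises were seen for Amigo2, an adhesion protein, which measured 6.07 and 5.41 FPKM at P5 against 44.1 and 60.7 FPKM in Adult (log2 change 2.97, SE 0.21, adjusted p = 1.18e-04), and Stxbp6, which measured 1.87 and 1.55 FPKM at P5 against 12.6 and 18.5 FPKM in Adult. Cartpt, the neuropeptide precursor of ON-OFF direction-selective cells, measured 50.2 and 29.03 FPKM at P5 against 144 and 109 FPKM in Adult, and this call was lost without Adult replicate 1. Of the 18 called members 15 lay within 0.5 in the Adult libraries. Amigo2 and Stxbp6 were higher in replicate 2, the side of amacrine and Müller genes, while Satb1 and Foxp2 were higher in replicate 1.

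All 20 growth cone genes tested fell in Adult, against 33.7% of all genes, with changes between -5.40 and -0.47 and a median of -2.73. These proteins build and steer the tip of a growing axon by acting on actin and microtubules. Gap43, the membrane phosphoprotein of growth cones (on chromosome 16, 42248442 to 42340651 in GRCm38), measured 1108 and 1026 FPKM at P5 against 33.6 and 35.7 FPKM in Adult (log2 change -4.91, SE 0.11, adjusted p = 7.82e-06). Tmsb10, a thymosin that binds actin monomers, measured 852 and 856 FPKM at P5 against 70.96 and 69.1 FPKM in Adult (log2 change -3.59, SE 0.09, adjusted p = 9.64e-06). Stmn2, a destabiliser of microtubules that is also on the ganglion cell list, measured 560.3 and 509.6 FPKM at P5 against 32 and 36.4 FPKM in Adult. In all 3 the libraries of an age were nearly equal and the ages far apart. Dpysl5, a collapsin response mediator, measured 78.7 and 85.7 FPKM at P5 against 7.32 and 6.73 FPKM in Adult (log2 change -3.37, SE 0.10, adjusted p = 1.47e-05), and Stmn1 measured 1297 and 1285 FPKM at P5 against 159.9 and 186 FPKM in Adult. Of the 20, 8 fell further than the ganglion cell median, and 15 were higher in Adult replicate 2, the library with the lower ganglion cell markers. The largest fall, of Dpysl3, was from 905 and 923 to 25.5 and 16.7 FPKM, and Dcx, the microtubule protein of migrating and growing neurons, went from 47.1 and 56.5 to 1.26 and 2.67 FPKM (both were chosen after their values were seen). The smallest, that of Fez1 (-0.47), was also picked with its value known, and its call was lost without Adult replicate 1.

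**Figure D3:**
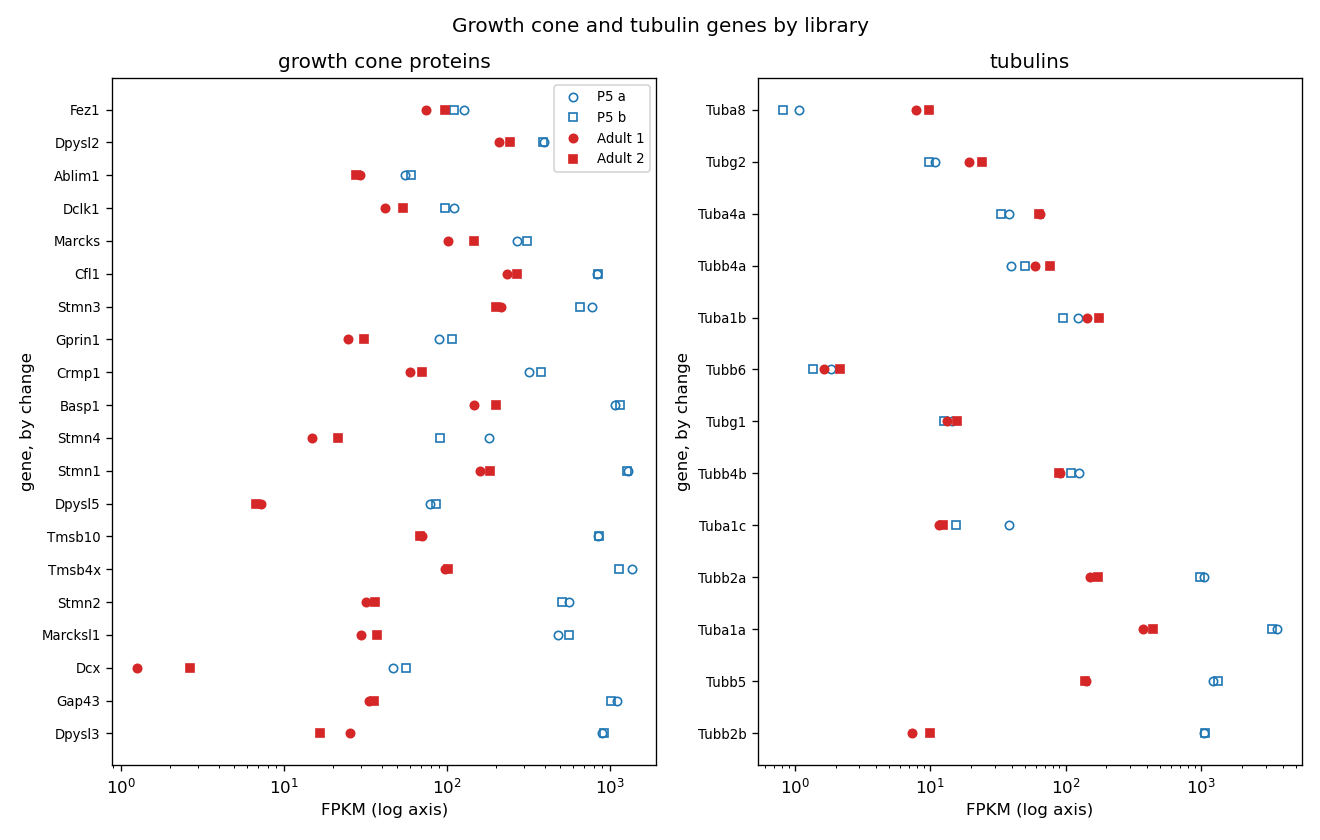
FPKM on a log axis of the 20 growth cone genes and 13 tubulin genes tested, ordered by change. Open symbols are the P5 libraries and filled symbols the Adult libraries; every growth cone gene is lower in Adult, and the tubulins run from Tubb2b, the deepest fall, to Tuba8, the largest rise.

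Tubulin isotypes moved in opposite directions: of 13 tested genes 5 fell and 5 rose (38.5% each), against 33.7% and 26.2% of all genes. With equal library totals 7 fell and 1 rose, and the rises became fewer without Adult replicate 2. Tubb2b, the beta-tubulin of young neurons (on chromosome 13, 34126748 to 34130466 in GRCm38), measured 1053 and 1073 FPKM at P5 against 7.31 and 9.96 FPKM in Adult (log2 change -6.80, SE 0.17, adjusted p = 9.64e-06). Tubb5 measured 1232 and 1336 FPKM at P5 against 142 and 139 FPKM in Adult and Tuba1a, the main alpha-tubulin of developing neurons, measured 3654 and 3369 FPKM at P5 against 376 and 444 FPKM in Adult (log2 change -3.10, SE 0.14, adjusted p = 3.38e-05). Tubb2a measured 1059 and 983 FPKM at P5 against 152 and 175 FPKM in Adult. All 4 were far lower in both Adult libraries, and 3 fell further than the ganglion cell median. Tuba8 and Tuba4a changed by 2.33 and 0.84 and were picked after their values were seen; with equal library totals these were 1.99 for Tuba8 and 0.098 for Tuba4a. Tuba4a lay at 38.4 and 33.1 FPKM at P5 against 64.8 and 64.1 FPKM in Adult. Tubulin genes share near-identical coding sequence, so reads may be split between them and single members are uncertain.

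Of 4 neurofilament-type genes 3 fell. Nefl, the light subunit, measured 1144 and 907 FPKM at P5 against 125 and 49.4 FPKM in Adult (log2 change -3.68, SE 0.41, adjusted p = 5.49e-04), Nefm changed by -3.10, and Ina (alpha-internexin), the filament of young axons, measured 166 and 182 FPKM at P5 against 43.2 and 38.1 FPKM in Adult (log2 change -2.07, SE 0.11, adjusted p = 5.31e-05). Nefl differed between the Adult libraries by more than 1, on the side of the rod and ganglion cell genes, and Ina by under 0.5. Nefh, the heavy subunit, was not called, as given above.

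Microtubule-associated proteins fell more often than they rose, 12 (60%) against 5 (25%) of 20, beside 33.7% and 26.2% of all genes. With equal library totals 15 fell and 2 rose. Mapt (tau) measured 303 and 342 FPKM at P5 against 56.1 and 66.9 FPKM in Adult (log2 change -2.38, SE 0.14, adjusted p = 7.70e-05). Map1b, the protein of growing axons, measured 199.5 and 219 FPKM at P5 against 84.4 and 72.5 FPKM in Adult, and Mapre1, which tracks the plus ends of microtubules, measured 75.2 and 74.8 FPKM at P5 against 14.4 and 12.4 FPKM in Adult (log2 change -2.40, SE 0.11, adjusted p = 3.86e-05). Map6, a stabiliser of microtubules, changed by -1.84. Of axonal motors, 13 of 23 fell and 1 rose, or 21 and 1 with equal library totals and 12 and 3 with a common protein-coding total. Kif5a, a kinesin heavy chain of neurons, measured 197 and 226 FPKM at P5 against 42.8 and 34.5 FPKM in Adult (log2 change -2.43, SE 0.15, adjusted p = 8.81e-05). Kif5c changed by -1.16, the light chain Klc1 by -1.05, the kinesin Kif3c by -1.58, and the dynein chains Dync1i2 and Dync1li1 by -1.96 and -1.16. No motor fell beyond the ganglion cell median, and 12 of the 14 called motors were within 0.5 in the Adult libraries. Without Adult replicate 1 the rises among microtubule-associated proteins were 3.

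Axon guidance genes moved in both directions, and their rises were near the share of all genes. Of 43 tested, 19 fell (44.2%) and 11 rose (25.6%), against 33.7% and 26.2% of all genes. The median change was -0.21, and the split was 27 and 6 with equal library totals. Nrp1, the neuropilin that binds semaphorin 3A and VEGF, measured 35.9 and 42.8 FPKM at P5 against 4.29 and 3.82 FPKM in Adult (log2 change -2.99, SE 0.14, adjusted p = 4.48e-05). Robo2, the receptor that reads Slit proteins along the optic tract, measured 102 and 111 FPKM at P5 against 32.2 and 42.2 FPKM in Adult (log2 change -1.502, SE 0.16, adjusted p = 4.34e-04). Sema3a, a repellent ligand, measured 18.8 and 18.5 FPKM at P5 against 6.36 and 6.17 FPKM in Adult. Rises included Slit2, the ligand of Robo receptors, which measured 15 and 15.2 FPKM at P5 against 87.3 and 130.1 FPKM in Adult (log2 change 2.74, SE 0.19, adjusted p = 1.12e-04). Unc5d, a netrin receptor, measured 2.41 and 2.08 FPKM at P5 against 14.7 and 18.5 FPKM in Adult (log2 change 2.43, SE 0.17, adjusted p = 1.20e-04). The 3 named members that fell and Unc5d lay within 0.5 in the Adult libraries. Robo2, Slit2 and Unc5d were higher in replicate 2, and Nrp1 and Sema3a in replicate 1. Of the 43, 33 were higher in replicate 2.

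Among 17 genes of the axon initial segment, the node and axonal adhesion, 11 fell and 5 rose, or 12 and 2 with equal library totals. L1cam, an adhesion molecule on which axons grow in bundles, measured 128 and 128 FPKM at P5 against 18.3 and 20.5 FPKM in Adult (log2 change -2.66, SE 0.11, adjusted p = 3.05e-05). Chl1, its close homologue, measured 47.5 and 32.6 FPKM at P5 against 2.32 and 1.87 FPKM in Adult (log2 change -3.71, SE 0.20, adjusted p = 6.29e-05). Cntn1 (contactin 1) measured 191 and 144 FPKM at P5 against 31.9 and 28.6 FPKM in Adult, and Ncam1 changed by -1.01. Sptbn4, the spectrin that anchors channels at the initial segment and node, measured 4.89 and 5.11 FPKM at P5 against 18.3 and 17.6 FPKM in Adult (log2 change 1.66, SE 0.12, adjusted p = 1.40e-04). Sptan1, its alpha partner in the membrane skeleton, changed by -1.06. All 16 called members were within 0.5 in the Adult libraries.

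Ion channels are the proteins through which the mature cell turns input into spikes. Of 11 sodium channel genes 5 fell and 3 rose, near the shares of all genes, or 6 and 2 with equal library totals. Scn9a, the Nav1.7 subunit, measured 19.2 and 19.9 FPKM at P5 against 1.17 and 1.04 FPKM in Adult (log2 change -3.29, SE 0.13, adjusted p = 2.91e-05), and Scn3a, the embryonic neuronal channel, measured 63 and 64.6 FPKM at P5 against 17.1 and 21.8 FPKM in Adult (log2 change -1.67, SE 0.15, adjusted p = 2.30e-04). The beta subunits went apart: Scn3b measured 93.7 and 89.1 FPKM at P5 against 29.6 and 37.1 FPKM in Adult, whereas Scn2b measured 12.2 and 9.68 FPKM at P5 against 38.3 and 35.3 FPKM in Adult (log2 change 1.67, SE 0.19, adjusted p = 6.48e-04). Fgf12, which binds the tail of the channel, changed by -0.78.

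Of 38 potassium and HCN channel genes 24 rose and 7 fell, or 17 and 11 with equal library totals and 27 and 3 with a common protein-coding total, and their median change was 1.02. Kcnab3, an auxiliary beta subunit of Kv1 channels, measured 1.56 and 1.39 FPKM at P5 against 36.7 and 45.04 FPKM in Adult (log2 change 4.07, SE 0.16, adjusted p = 2.82e-05). Kcnab1 measured 2.66 and 2.29 FPKM at P5 against 40.8 and 71.6 FPKM in Adult and Kcnip3, which binds Kv4 channels and calcium, measured 2.33 and 1.45 FPKM at P5 against 35.1 and 39.6 FPKM in Adult (log2 change 3.74, SE 0.19, adjusted p = 4.79e-05). Kcnh2, the ERG channel, measured 13.6 and 12.8 FPKM at P5 against 67.5 and 87.1 FPKM in Adult (log2 change 2.45, SE 0.14, adjusted p = 7.40e-05). Kcnab2 measured 63.5 and 54.6 FPKM at P5 against 120.3 and 117 FPKM in Adult. In each of the 5 the Adult values were all above those of P5, which naming members by small p or high level largely fixed. Of the 5, 4 were higher in replicate 2. Kcnip1, at 56.5 and 52.7 FPKM at P5 against 52.1 and 74.7 FPKM in Adult, was not called, and its sign changed with equal library totals. Of the 31 called members 26 lay within 0.5 in the Adult libraries and 1 was higher by at least 1 in replicate 1. Leaving out either Adult library, either E18 library or P5 library a gave 4 falls in place of 7.

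Of 20 calcium channel genes 11 rose and 4 fell, or 8 and 6 with equal library totals. Cacnb2, the beta subunit also used at photoreceptor synapses, measured 5.53 and 5.11 FPKM at P5 against 74.2 and 51.1 FPKM in Adult (log2 change 3.31, SE 0.19, adjusted p = 7.12e-05), and Cacna1i, a T-type pore, measured 2.29 and 2.59 FPKM at P5 against 17.1 and 25.6 FPKM in Adult (log2 change 2.68, SE 0.22, adjusted p = 1.86e-04). Beta subunits also fell: Cacnb3 measured 88.8 and 83.5 FPKM at P5 against 26.04 and 25.9 FPKM in Adult (log2 change -1.69, SE 0.10, adjusted p = 7.21e-05), and Cacnb1 measured 24.6 and 22.9 FPKM at P5 against 6.48 and 6.17 FPKM in Adult. Cacna1a, the P/Q-type pore, changed by -0.52, a call lost without Adult replicate 1. Cacna1f and Cacna2d4, the channel pair of photoreceptor terminals, were both higher by at least 1 in Adult replicate 1, as the rod genes were: Cacna1f lay at 24.2 and 5.77 FPKM and Cacna2d4 at 45.2 and 16.7 FPKM in replicates 1 and 2 (both named after their values were seen). Among 15 pump and exchanger genes 5 rose (33.3%) and 3 fell (20%), against 26.2% and 33.7% of all genes. These became 2 and 9 with equal library totals and 10 and 3 with a common protein-coding total. Atp1b2, the sodium pump's beta subunit also made by glia, measured 6.899 and 8.12 FPKM at P5 against 55.1 and 43.5 FPKM in Adult (log2 change 2.56, SE 0.15, adjusted p = 8.09e-05). The exchanger Slc8a2 changed by -1.40 and the pump regulator Fxyd6 by -1.73. Without Adult replicate 2 the rises were 3.

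Receptor subunits moved in both directions. Of 19 genes of AMPA, NMDA and kainate receptors and their partners, 9 rose and 4 fell, but 4 and 10 with equal library totals, and 2 fell without Adult replicate 1 or P5 library a. Grik2, a kainate receptor subunit, measured 7.39 and 9.09 FPKM at P5 against 42.2 and 51 FPKM in Adult (log2 change 2.37, SE 0.15, adjusted p = 9.57e-05). Grin1, the obligatory NMDA subunit, measured 20.9 and 17.99 FPKM at P5 against 38.03 and 40.2 FPKM in Adult (log2 change 0.97, SE 0.14, adjusted p = 0.00159). The AMPA auxiliary subunits went apart, as Cnih2 measured 88.6 and 95.6 FPKM at P5 against 27.3 and 31.1 FPKM in Adult (log2 change -1.63, SE 0.11, adjusted p = 1.13e-04) and Cnih3 measured 2.48 and 2.17 FPKM at P5 against 11.2 and 11 FPKM in Adult (log2 change 1.86, SE 0.17, adjusted p = 2.78e-04). Gria2, the subunit that sets calcium entry, was at 97.3 and 88.7 FPKM at P5 against 96.04 and 121 FPKM in Adult and was not called, with a sign that turned negative with equal library totals.

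Of 21 genes of GABA and glycine receptors and chloride transport 6 rose and 6 fell, or 6 and 13 with equal library totals. Both counts are 28.6% of those tested, near the 26.2% and 33.7% of all genes. Gabra5, an alpha subunit of the GABA-A receptor, measured 14.3 and 12.6 FPKM at P5 against 0.623 and 0.351 FPKM in Adult (log2 change -3.28, SE 0.17, adjusted p = 4.99e-05). The glycine receptor subunit Glra3 measured 2.14 and 2.53 FPKM at P5 against 28.7 and 50.5 FPKM in Adult (log2 change 3.55, SE 0.27, adjusted p = 1.50e-04). Gabbr1, a GABA-B subunit, changed by -0.84. Slc12a5 (KCC2), the chloride extruder that makes GABA inhibitory, lay at 53.9 and 40.2 FPKM at P5 against 182 and 209 FPKM in Adult (log2 change 2.04), and is named after its values were seen. Gabra5 lay within 0.5 in the Adult libraries, and Glra3 was higher in replicate 2. Of 10 nicotinic receptor genes 5 fell (50%) and 3 rose (30%), against 33.7% and 26.2% of all genes, or 6 and 1 with equal library totals. Chrna3 measured 25.9 and 21.9 FPKM at P5 against 2.11 and 1.26 FPKM in Adult (log2 change -3.23, SE 0.18, adjusted p = 6.90e-05), and Ly6h, a regulator of these receptors, measured 196 and 203 FPKM at P5 against 65.2 and 64.8 FPKM in Adult. Chrna4 changed by -1.35. Chrna2 rose from trace levels to 9.57 and 11.5 FPKM (log2 change 3.52, SE 0.18, adjusted p = 5.42e-05).

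Of 40 genes of the synaptic vesicle and its release 23 rose and 11 fell; with equal library totals the split was 14 and 15. Cplx3, a complexin of ribbon and amacrine synapses in the retina, measured 0.236 and 0.122 FPKM at P5 against 161 and 166 FPKM in Adult (log2 change 7.12, SE 0.17, adjusted p = 8.17e-06). Sncb (beta-synuclein) measured 11.6 and 12.1 FPKM at P5 against 159 and 187 FPKM in Adult (log2 change 3.76, SE 0.12, adjusted p = 1.52e-05), while Sncg, of the same family, fell as given above. Sncb lay within 0.5 in the Adult libraries. Stx1a, a plasma membrane SNARE, measured 76.6 and 64.9 FPKM at P5 against 8.33 and 8.88 FPKM in Adult (log2 change -2.90, SE 0.12, adjusted p = 3.12e-05). Snap25, its partner, was at 859 and 732 FPKM at P5 against 696 and 727 FPKM in Adult and was not called, with a sign that turned positive with a common protein-coding total. Of the 34 called members 4 were higher by at least 1 in Adult replicate 1, among them Slc17a7, the vesicular transporter of photoreceptors and bipolar cells, at 106 and 33.9 FPKM (named after its values were seen), and the ganglion cell genes Sncg and Slc17a6.

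Of 23 calcium-binding proteins and calcium kinases 11 fell (47.8%) and 5 rose (21.7%), against 33.7% and 26.2% of all genes. With equal library totals 17 fell and 3 rose. Calm2, a calmodulin gene, measured 1715 and 1586 FPKM at P5 against 499.6 and 509 FPKM in Adult (log2 change -1.71, SE 0.12, adjusted p = 1.34e-04), and Calm3 changed by -0.93. Camk4, the calcium kinase of the nucleus, measured 26.8 and 27.3 FPKM at P5 against 7.29 and 8.91 FPKM in Adult. Ncs1, a calcium sensor, changed by -1.33. Vsnl1, a calcium sensor of the same family, measured 40.4 and 35 FPKM at P5 against 92.8 and 105 FPKM in Adult (log2 change 1.37, SE 0.13, adjusted p = 3.00e-04). Without P5 library b the rises were 3.

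**Figure D4:**
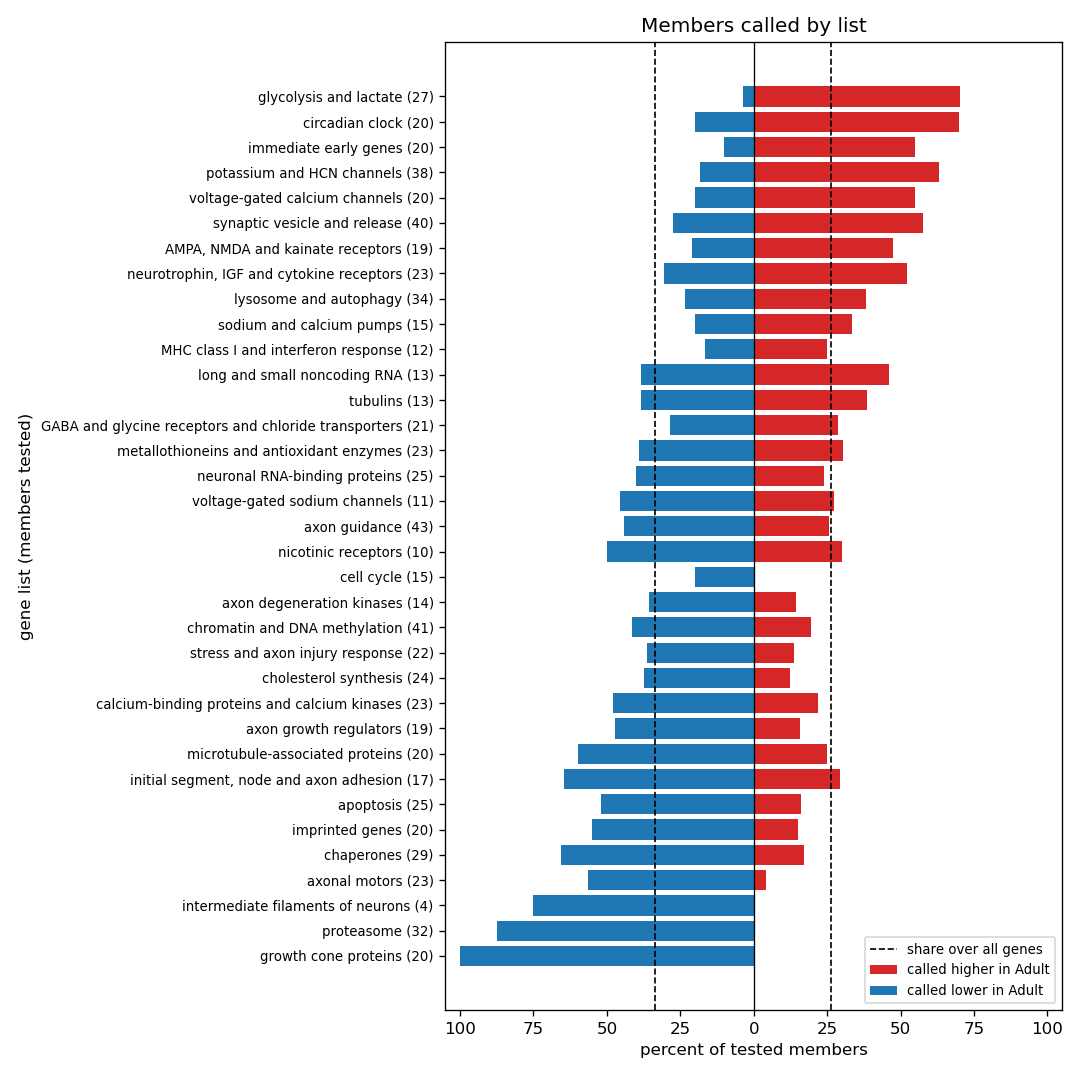
Share of tested members called lower (left bars) and higher (right bars) in Adult for the function lists. It is a percentage of the members tested in each list, whose number stands beside its name. The list of mitochondrially encoded genes is not drawn. The dashed lines mark the shares over all genes, 33.7% and 26.2%; growth cone and proteasome genes reach furthest to the left, and clock, glycolysis and potassium channel genes furthest to the right.

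Of 19 regulators of axon growth 9 fell (47.4%) and 3 rose (15.8%), against 33.7% and 26.2% of all genes. The split was 15 and 1 with equal library totals and 8 and 5 with a common protein-coding total. Their median change was -0.08, near the -0.07 of all genes. Sox11, a factor that drives axon growth in young neurons, measured 32.7 and 41.8 FPKM at P5 against 0.625 and 0.91 FPKM in Adult (log2 change -4.43, SE 0.15, adjusted p = 2.29e-05). Sox4, its relative, measured 126 and 168 FPKM at P5 against 9.49 and 11.2 FPKM in Adult (log2 change -3.69, SE 0.16, adjusted p = 3.28e-05). Myc measured 6.55 and 6.89 FPKM at P5 against 0.342 and 0.276 FPKM in Adult (log2 change -2.56, SE 0.14, adjusted p = 6.70e-05), and Mycn measured 29.4 and 32.3 FPKM at P5 against 6.33 and 7.86 FPKM in Adult. Sox11 and Sox4 fell further than the ganglion cell median and were higher in Adult replicate 2. Rtn4, which codes the growth inhibitor Nogo, measured 252 and 224 FPKM at P5 against 165 and 162 FPKM in Adult, and changed by -0.53. Klf9, a factor that restrains axon growth, went from 9.78 and 7.87 FPKM to 38.3 and 39.6 FPKM (log2 change 2.03, named after its values were seen), and it was the member that stayed higher when any of P5 library b, either Adult or either E18 library was left out and the rises became 1.

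Of 25 genes of cell death 13 fell and 4 rose, or 18 and 2 with equal library totals. Bak1, which opens the outer mitochondrial membrane, measured 15.3 and 18.9 FPKM at P5 against 4.99 and 5.34 FPKM in Adult (log2 change -1.55, SE 0.14, adjusted p = 2.53e-04). Bcl2l2, a survival protein of the Bcl2 family, measured 15.3 and 19.8 FPKM at P5 against 49.96 and 52.6 FPKM in Adult (log2 change 1.504, SE 0.14, adjusted p = 2.85e-04), and Bnip3, a mitochondrial protein of mitophagy, measured 71.6 and 50.5 FPKM at P5 against 142 and 156 FPKM in Adult. None of these 3 overlapped between ages, which naming members by small p or high level largely fixed. Of the 17 called genes 16 lay within 0.5 in Adult. Of 14 genes of axon degeneration 5 fell (35.7%, near the 33.7% of all genes) and 2 rose (14.3%, against 26.2%). The split was 12 and 1 with equal library totals and 3 and 6 with a common protein-coding total. Uchl1, an abundant neuronal deubiquitinase, measured 990.5 and 909.7 FPKM at P5 against 244 and 232 FPKM in Adult (log2 change -1.99, SE 0.10, adjusted p = 4.72e-05), and Nmnat2, the NAD-making enzyme that keeps axons alive, measured 75.05 and 77.05 FPKM at P5 against 30.9 and 30.5 FPKM in Adult (log2 change -1.28, SE 0.11, adjusted p = 2.45e-04).

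Of 23 receptors and signal proteins for neurotrophins, IGF and cytokines 12 rose and 7 fell; the split was 3 and 10 with equal library totals, and the rises were 7 without Adult replicate 1. Socs2, a brake on cytokine and growth hormone signals, measured 41.1 and 46.1 FPKM at P5 against 6.58 and 6.87 FPKM in Adult (log2 change -2.53, SE 0.14, adjusted p = 5.88e-05). Igf1, the growth factor, measured 31.6 and 26.97 FPKM at P5 against 7.87 and 7.14 FPKM in Adult (log2 change -1.83, SE 0.13, adjusted p = 1.36e-04). Gfra1, the GDNF coreceptor, measured 0.204 and 0.503 FPKM at P5 against 22.1 and 33.7 FPKM in Adult (log2 change 4.40, SE 0.31, adjusted p = 1.21e-04), and was higher in Adult replicate 2. Ngfr (p75), the low-affinity neurotrophin receptor, measured 5.87 and 5.41 FPKM at P5 against 16 and 18.8 FPKM in Adult (log2 change 1.47, SE 0.15, adjusted p = 3.74e-04). Jak1 changed by -0.73.

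Of 25 neuronal RNA-binding proteins 10 fell (40%) and 6 rose (24%), against 33.7% and 26.2% of all genes. The split was 17 and 2 with equal library totals and 8 and 8 with a common protein-coding total. Elavl2 measured 68.5 and 56.7 FPKM at P5 against 10.1 and 7.97 FPKM in Adult and Elavl4 (HuD), which stabilises messages of growing neurons, measured 110.3 and 86.3 FPKM at P5 against 22.2 and 27.9 FPKM in Adult (log2 change -1.93, SE 0.17, adjusted p = 2.56e-04). Rbfox2, a splicing factor, changed by -1.12, Celf6 by -1.27, and Ptbp2, the splicing regulator of young neurons, by -0.99. Of 41 chromatin genes 17 fell (41.5%) and 8 rose (19.5%), against 33.7% and 26.2% of all genes. With equal library totals 26 fell and 3 rose, against 59.8% and 11.9% of all genes. With a common protein-coding total the counts were 9 and 15, near the 23.3% and 36.6% of all genes. Among the members whose sign did not depend on the scaling, Hdac2 measured 99.05 and 88.1 FPKM at P5 against 36.1 and 35.1 FPKM in Adult (log2 change -1.37, SE 0.11, adjusted p = 1.67e-04), and Hdac5, a deacetylase that shuttles between nucleus and cytoplasm, measured 23.9 and 24.3 FPKM at P5 against 99.5 and 91.1 FPKM in Adult (log2 change 1.94, SE 0.10, adjusted p = 4.93e-05). Smarcd3, a subunit of the neuronal BAF remodelling complex, measured 53.4 and 48.4 FPKM at P5 against 12.01 and 13.01 FPKM in Adult (log2 change -1.94, SE 0.12, adjusted p = 8.10e-05), and Smarce1 changed by -1.14.

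Most genes of the circadian clock were higher in Adult: 14 of 20 tested were called higher and 4 lower, against 26.2% and 33.7% of all genes, or 11 and 5 with equal library totals, and the median change was 1.58. The clock is a loop in which CLOCK and its partner ARNTL bind E-boxes and switch on Per, Cry and Nr1d genes, whose products shut the loop down, while DBP, TEF and HLF act through a second site, the D-box. Dbp measured 8.43 and 8.197 FPKM at P5 against 134 and 153 FPKM in Adult (log2 change 3.95, SE 0.11, adjusted p = 1.21e-05). Hlf measured 2.19 and 3.198 FPKM at P5 against 52.4 and 74.9 FPKM in Adult (log2 change 4.12, SE 0.22, adjusted p = 5.94e-05) and Tef measured 21.2 and 30.6 FPKM at P5 against 116 and 139.5 FPKM in Adult (log2 change 2.27, SE 0.19, adjusted p = 1.92e-04). Nr1d1 (REV-ERB alpha), the repressor of Arntl, measured 4.81 and 6.35 FPKM at P5 against 49.4 and 64.2 FPKM in Adult (log2 change 3.13, SE 0.18, adjusted p = 6.75e-05), and Bhlhe41 (DEC2), which competes at E-boxes, measured 1.57 and 1.44 FPKM at P5 against 20.1 and 18.9 FPKM in Adult (log2 change 3.03, SE 0.15, adjusted p = 4.72e-05). In all 5 every Adult library was above every P5 library. Members were named by small p or high level, so this separation is only a description. The kinase Csnk1e, which marks PER for destruction, was among the 4 that fell (log2 change -0.88, SE 0.14, adjusted p = 0.00205). Arntl, at 20.2 and 24.03 FPKM at P5 against 23.8 and 18.2 FPKM in Adult, was not called, its sign turned positive with a common protein-coding total and with quantile normalization, and it is named after its values were seen. The hour at which the tissue was taken is not given in the sources used here, and the ages may differ in it. Of the 18 called genes 15 lay within 0.5 in the Adult libraries, and 15 of the 20 tested were higher in replicate 2.

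The promoters of the clock genes were searched for both sites. Of 21 genes in the list 18 have an entry in RefSeq's promoter table (GRCm38.p6); Bhlhe40, Csnk1d and Per2 do not. In the 250 bases before the start, on both strands, the E-box CACGTG lay in 5 of these 18 (Bhlhe41, Ciart, Cry1, Per1 and Tef), against 6.86% of 27025 genes in the table, and the D-box, searched as TTATGNAA, in 2 (Per1 and Per3), against 3.63%. The E-box is its own reverse complement, and the sites did not overlap. Of the 18 genes 12 were called higher, among them 4 of the 5 with an E-box and both with a D-box. Shown here, with the sites in capitals, are the promoters with the most sites of each kind and those of Per1, which holds both, and Bhlhe41, which changed most of the genes with an E-box. Each runs 5′ to 3′ on the strand of its gene. Ciart (chr3:95882229-95882478, minus strand) has E-boxes that begin 116, 58 and 44 bases before the start. Per1 (chr11:69098699-69098948, plus strand) has an E-box at 166 and a D-box at 24. Per3 (chr4:151044666-151044915, minus strand) has D-boxes at 205 and 158, and Bhlhe41 (chr6:145865421-145865670, minus strand) an E-box at 153.
Ciart: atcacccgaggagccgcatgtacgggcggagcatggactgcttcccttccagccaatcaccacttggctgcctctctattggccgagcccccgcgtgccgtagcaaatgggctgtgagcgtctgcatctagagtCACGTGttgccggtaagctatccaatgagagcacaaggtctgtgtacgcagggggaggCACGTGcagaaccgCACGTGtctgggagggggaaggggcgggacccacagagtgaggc
Per1: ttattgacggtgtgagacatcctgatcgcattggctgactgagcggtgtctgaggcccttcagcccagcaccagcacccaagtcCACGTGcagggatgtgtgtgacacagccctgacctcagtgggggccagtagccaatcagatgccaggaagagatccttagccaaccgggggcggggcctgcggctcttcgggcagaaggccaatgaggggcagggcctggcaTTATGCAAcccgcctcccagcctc
Per3: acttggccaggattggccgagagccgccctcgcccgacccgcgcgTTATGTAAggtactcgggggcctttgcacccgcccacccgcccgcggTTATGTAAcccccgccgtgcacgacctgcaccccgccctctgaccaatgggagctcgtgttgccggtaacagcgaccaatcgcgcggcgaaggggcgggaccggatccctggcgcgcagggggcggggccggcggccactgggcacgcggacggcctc
Bhlhe41: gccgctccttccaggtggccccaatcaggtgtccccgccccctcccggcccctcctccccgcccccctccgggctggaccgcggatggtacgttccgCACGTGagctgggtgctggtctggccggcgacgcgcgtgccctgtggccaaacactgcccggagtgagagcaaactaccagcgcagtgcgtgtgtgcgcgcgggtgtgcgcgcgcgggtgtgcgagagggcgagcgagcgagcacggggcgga

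The levels of these 4 genes stood as follows, Ciart, Per1 and Per3 being named for their sites. Ciart, a repressor of the loop, measured 1.88 and 2.99 FPKM at P5 against 13.03 and 19.6 FPKM in Adult (log2 change 2.33, SE 0.24, adjusted p = 4.34e-04), and Per3 measured 3.09 and 3.95 FPKM at P5 against 26.7 and 30.6 FPKM in Adult (log2 change 2.72, SE 0.16, adjusted p = 6.99e-05). Per1 measured 5.32 and 9.66 FPKM at P5 against 13.4 and 23.6 FPKM in Adult (log2 change 1.20, SE 0.32, adjusted p = 0.0189), and this call was lost without Adult replicate 2. All 3 were higher in Adult replicate 2 than in replicate 1, and no Adult value lay under a P5 value. A match of letters in this window is a description and shows no binding, and genes without a match, such as Dbp, Hlf and Nr1d1, rose as well.

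**Figure D5:**
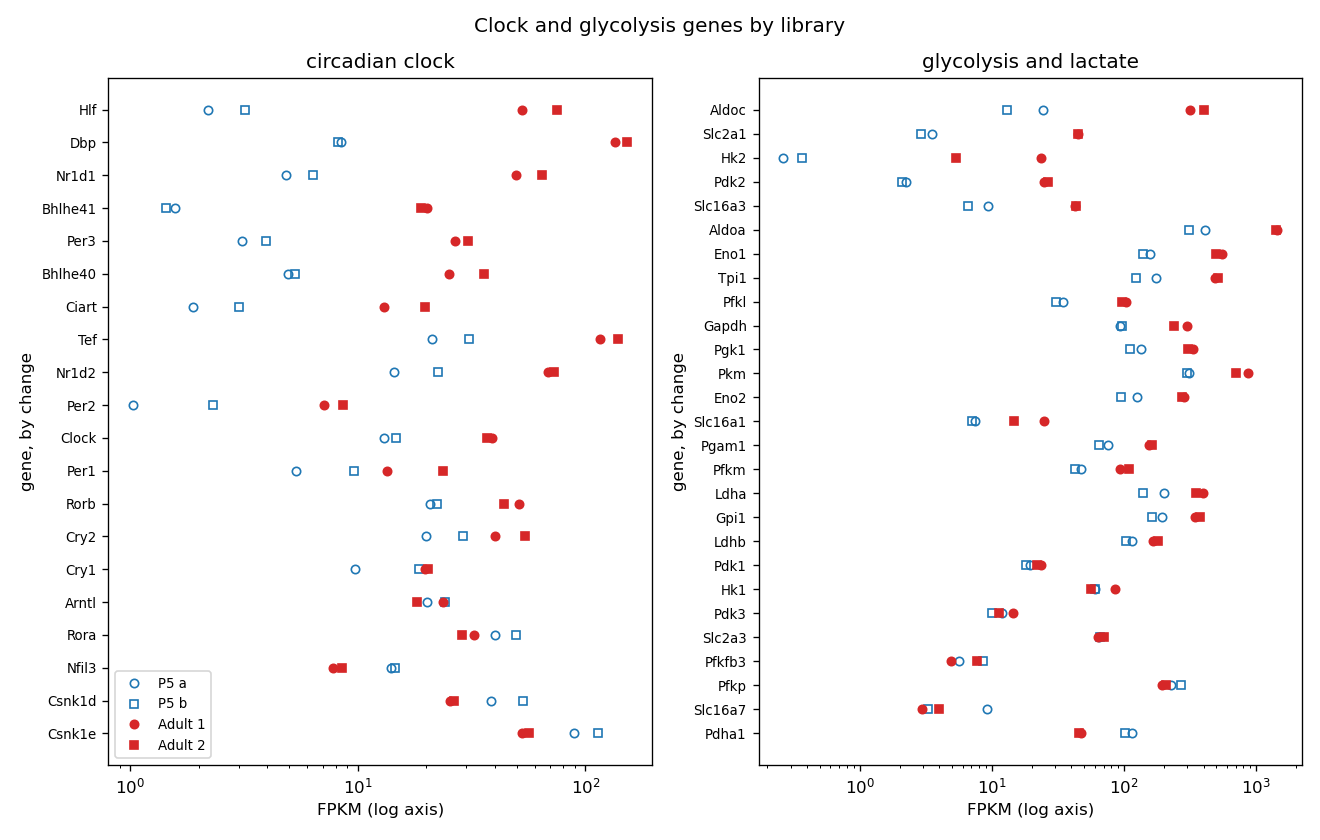
FPKM on a log axis of the 20 clock genes and 27 glycolysis genes tested, ordered by change, with open symbols for P5 and filled symbols for Adult libraries. Hlf and Dbp head the clock genes and Aldoc the glycolysis genes on the log2(FPKM + 1) scale, with no overlap between ages.

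Immediate early genes, which neurons and stressed cells switch on within minutes, rose in 11 of 20 cases and fell in 2, or 6 and 4 with equal library totals and 13 and 0 with a common protein-coding total. Junb measured 11.3 and 13.8 FPKM at P5 against 40.7 and 43.7 FPKM in Adult (log2 change 1.68, SE 0.13, adjusted p = 1.48e-04). Egr1 measured 3.89 and 3.18 FPKM at P5 against 20.7 and 38.03 FPKM in Adult (log2 change 2.69, SE 0.33, adjusted p = 7.86e-04), and Zfp36, which destabilises such messages, measured 1.13 and 1.096 FPKM at P5 against 6.15 and 6.103 FPKM in Adult (log2 change 1.75, SE 0.15, adjusted p = 2.31e-04). Nr4a2, which is also on the amacrine list, measured 0.21 and 0.485 FPKM at P5 against 3.91 and 4.94 FPKM in Adult. Fos, at 81.2 and 75.03 FPKM at P5 against 87.1 and 115 FPKM in Adult, and Jun, at 41.97 and 19.8 FPKM at P5 against 30.7 and 28.8 FPKM in Adult, were not called; Fos turned negative with equal library totals, and so did Jun. Both falls were lost without Adult replicate 1, P5 library a or either E18 library. The time from tissue to lysis is not given in the sources used here.

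Of 22 genes of the stress and axon injury response 8 fell (36.4%, near the 33.7% of all genes) and 3 rose (13.6%, against 26.2%). The split was 14 and 1 with equal library totals and 7 and 6 with a common protein-coding total. The rises became fewer without Adult replicate 1. Gal, the neuropeptide galanin, measured 12.4 and 11.4 FPKM at P5 against 0.302 and 0.209 FPKM in Adult (log2 change -3.36, SE 0.13, adjusted p = 2.82e-05), and Cdkn1a (p21) measured 21.1 and 19.3 FPKM at P5 against 0.705 and 0.831 FPKM in Adult (log2 change -3.58, SE 0.14, adjusted p = 2.82e-05). Ddit3 (CHOP), the factor of unresolved protein stress, measured 9.12 and 7.55 FPKM at P5 against 30 and 31.5 FPKM in Adult (log2 change 1.77, SE 0.13, adjusted p = 1.23e-04). Atf4 changed by -0.44. Hspa5, the chaperone of the endoplasmic reticulum, at 160.1 and 119 FPKM at P5 against 122 and 92.8 FPKM in Adult, was not called, and its sign turned positive with quantile normalization.

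Glycolysis genes rose in 19 of 27 cases and fell in 1, with a median change of 1.29; with equal library totals 16 rose and 7 fell. Slc2a1, the glucose transporter, measured 3.55 and 2.897 FPKM at P5 against 45.2 and 44.6 FPKM in Adult (log2 change 3.45, SE 0.17, adjusted p = 4.61e-05). Aldoa measured 407 and 308 FPKM at P5 against 1442 and 1399 FPKM in Adult (log2 change 2.001, SE 0.15, adjusted p = 1.49e-04), and Aldoc, the aldolase also made by glia, measured 24.2 and 12.99 FPKM at P5 against 318 and 402 FPKM in Adult (log2 change 4.25, SE 0.28, adjusted p = 9.40e-05). Eno1 measured 158 and 139 FPKM at P5 against 552 and 496 FPKM in Adult (log2 change 1.81, SE 0.11, adjusted p = 8.45e-05), and Pkm measured 311 and 301 FPKM at P5 against 871 and 702 FPKM in Adult (log2 change 1.35, SE 0.12, adjusted p = 2.81e-04). Pdk2, which holds pyruvate back from the mitochondrion, measured 2.23 and 2.08 FPKM at P5 against 24.99 and 26.6 FPKM in Adult (log2 change 3.09, SE 0.14, adjusted p = 3.59e-05). The Adult libraries were within 0.5 of each other for 18 of the 20 called genes. Hk2, the hexokinase of photoreceptors, was the called gene that differed by more than 1, with 23.5 and 5.35 FPKM in Adult replicates 1 and 2, and is named after its values were seen.

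Of 32 proteasome genes 28 fell and none rose, with a median of -0.76 and changes between -1.15 and 0.24, and with a common protein-coding total 23 fell and 1 rose. Psmb6, a catalytic subunit, measured 215 and 216 FPKM at P5 against 110.3 and 111 FPKM in Adult (log2 change -0.96, SE 0.08, adjusted p = 2.42e-04). Psmd6, of the regulatory particle, measured 92.5 and 91.9 FPKM at P5 against 44.1 and 44.3 FPKM in Adult (log2 change -1.04, SE 0.09, adjusted p = 2.43e-04), and Psmd13 measured 60.3 and 63.1 FPKM at P5 against 29.6 and 28.9 FPKM in Adult. All 28 called members lay within 0.5 in the Adult libraries. Of 29 chaperones 19 fell and 5 rose, or 24 and 2 with equal library totals, and 2 rose without Adult replicate 1. Subunits of the TRiC ring, which folds actin and tubulin, were among them: Cct2 measured 136 and 138 FPKM at P5 against 55.9 and 51.3 FPKM in Adult (log2 change -1.34, SE 0.10, adjusted p = 1.34e-04), and Cct7 measured 138 and 138 FPKM at P5 against 61.6 and 62.9 FPKM in Adult (log2 change -1.13, SE 0.09, adjusted p = 1.62e-04). Hspa8 (Hsc70) measured 1378 and 1049 FPKM at P5 against 631 and 531 FPKM in Adult and Dnaja1, its cochaperone, measured 162 and 147 FPKM at P5 against 60.1 and 60.5 FPKM in Adult (log2 change -1.34, SE 0.11, adjusted p = 1.75e-04). Cryab, a small heat shock protein of lens and glia that is also on the lens list, rose to 12.1 and 13.3 FPKM from under 0.1 FPKM in both P5 libraries.

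Of 34 lysosome and autophagy genes 13 rose (38.2%) and 8 fell (23.5%), against 26.2% and 33.7% of all genes. With equal library totals 3 rose and 21 fell, near the 11.9% and 59.8% of all genes. With a common protein-coding total the split was 19 and 6, against 36.6% and 23.3% of all genes. Tpp1, a lysosomal peptidase, measured 2.95 and 1.97 FPKM at P5 against 33.2 and 29.5 FPKM in Adult (log2 change 3.24, SE 0.20, adjusted p = 8.10e-05). Ctsf measured 27.6 and 26.5 FPKM at P5 against 62.8 and 61.5 FPKM in Adult (log2 change 1.17, SE 0.10, adjusted p = 2.31e-04), and Atp6v0c, of the proton pump, measured 116 and 129 FPKM at P5 against 255 and 268 FPKM in Adult (log2 change 1.09, SE 0.10, adjusted p = 3.15e-04). Lamp1, the lysosomal membrane protein, measured 143 and 150 FPKM at P5 against 66.99 and 65.8 FPKM in Adult (log2 change -1.13, SE 0.09, adjusted p = 1.60e-04). These 4 kept their sign under every scaling. Of 23 metallothioneins and antioxidant enzymes 9 fell (39.1%) and 7 rose (30.4%), near the 33.7% and 26.2% of all genes. With equal library totals 17 fell and 3 rose, and the rises became fewer without Adult replicate 2. Prdx2, the peroxiredoxin of neurons, measured 388 and 342 FPKM at P5 against 140.1 and 146 FPKM in Adult (log2 change -1.35, SE 0.10, adjusted p = 1.44e-04), Txn1 (thioredoxin) measured 127 and 106 FPKM at P5 against 34.04 and 36.02 FPKM in Adult (log2 change -1.70, SE 0.12, adjusted p = 1.18e-04), and Txnrd1, its reductase, changed by -1.54. Gsta4, which clears lipid aldehydes, measured 0.433 and 0.246 FPKM at P5 against 17.3 and 20.7 FPKM in Adult (log2 change 3.90, SE 0.23, adjusted p = 7.10e-05).

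Cholesterol synthesis varied with the libraries used. Of 24 genes 9 fell (37.5%, near the 33.7% of all genes) and 3 rose (12.5%, against 26.2%). The falls were 17 with equal library totals and 4 with a common protein-coding total. They became fewer without Adult replicate 1, P5 library a or either E18 library, and more when P5 library b was left out. Hmgcs1, an early enzyme of the path, measured 512 and 305 FPKM at P5 against 104 and 140.5 FPKM in Adult (log2 change -1.70, SE 0.27, adjusted p = 0.00231), and Lss measured 70.5 and 64.04 FPKM at P5 against 29.1 and 40.9 FPKM in Adult (log2 change -0.94, SE 0.19, adjusted p = 0.00553). Abca1, which exports cholesterol, measured 0.0778 and 0.22 FPKM at P5 against 4.92 and 7.21 FPKM in Adult (log2 change 2.60, SE 0.23, adjusted p = 2.39e-04). All 24 genes were higher in Adult replicate 2 than in replicate 1, and Hmgcs1 also differed between the P5 libraries.

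The largest single changes, taken from called genes with at least 10 FPKM at the higher age and without predicted genes and small RNAs, are given next. The 10 largest rises included the rod genes Sag, Prph2 and Gnat1 and the amacrine gene Gad1. They also included C1ql1 and C1ql2, which are secreted synaptic organisers, Cplx3, the chemokine Cxcl14, and RP23-116M12.2, an antisense transcript whose reads cannot be told from its partner's unless strand was kept. C1ql1 measured 0.305 and 0.16 FPKM at P5 against 168 and 258 FPKM in Adult (log2 change 7.41, SE 0.28, adjusted p = 2.82e-05). Cxcl14 measured 0.209 and 0.108 FPKM at P5 against 124 and 161 FPKM in Adult (log2 change 6.94, SE 0.18, adjusted p = 9.64e-06). Leaving out genes of the other cell type lists and those that differed by 0.5 or more between the Adult libraries brought in Necab1, a calcium-binding protein, which measured 0.516 and 0.645 FPKM at P5 against 74.3 and 87.8 FPKM in Adult, Lamp5, a vesicle protein, which measured 0.238 and 0.271 FPKM at P5 against 64.9 and 50.2 FPKM in Adult, and Neurod4 and Prdm13, which code factors of amacrine and other interneurons. It also brought in Tac2, a tachykinin precursor listed at 0 at P5 and at 40.5 and 33.2 FPKM in Adult. Mgarp, a mitochondrial protein, measured 27.9 and 17.7 FPKM at P5 against 796 and 884 FPKM in Adult (log2 change 5.18, SE 0.24, adjusted p = 4.04e-05). C1ql1, C1ql2, Cplx3, Cxcl14, Necab1, Lamp5, Prdm13 and Tac2 lay under 1 FPKM in every P5 and E18 library. They were tested only through their Adult level, which largely fixed that they rose, so their ranks and p-values are a description. Any other named gene with a mean under 1 FPKM over the P5 and E18 libraries carries the same limit.

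Of the 10 largest falls 5 were RP23-8J15 pseudogenes in a stretch of chromosome 1 that copies the mitochondrial genome, so their reads may belong to mitochondrial RNA and their values are uncertain. The others were Bc1, Cd24a, Tubb2b, Mstn and Islr2. Bc1, a small cytoplasmic RNA of dendrites that the exclusion of small RNAs by name and class did not catch, measured 243 and 475 FPKM at P5 against 0 and 1.96 FPKM in Adult. Cd24a, a surface protein of young neurons (on chromosome 10, 43578284 to 43584265 in GRCm38), measured 418 and 447 FPKM at P5 against 2.49 and 2.94 FPKM in Adult (log2 change -6.87, SE 0.13, adjusted p = 5.18e-06). Islr2, a membrane protein that axons need to fasciculate and grow, measured 252 and 332 FPKM at P5 against 4.12 and 2.45 FPKM in Adult (log2 change -6.11, SE 0.22, adjusted p = 2.61e-05). Mstn (myostatin) measured 84.8 and 119 FPKM at P5 against 0.632 and 0.291 FPKM in Adult (log2 change -6.13, SE 0.22, adjusted p = 2.49e-05). Kctd12, an auxiliary subunit of GABA-B receptors that was among the largest falls with near-equal Adult libraries, measured 148 and 137 FPKM at P5 against 2.25 and 1.76 FPKM in Adult (log2 change -5.58, SE 0.15, adjusted p = 9.64e-06). Each of these falls exceeded that of every ganglion cell marker, the deepest of which was -4.63.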

How the data were processed

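RNA-seq of panned mouse retinal ganglion cells was analysed from isoform FPKM that the authors made with HISAT2, Cufflinks and Cuffdiff on mm10, per the submitters' processing notes, which give no versions in the sources used here. The deposited FPKM, a length- and depth-scaled level, keep no read count, so depth is unknown and no count test was run. Isoforms (50829) were summed to 17027 gene symbols, and a value of 0.0001 FPKM was read as listed at 0. The deposited FPKM were turned into log2(FPKM + 1), and 14390 genes with a mean of at least 1 FPKM over the 6 libraries were tested. limma 3.58.1 (R 4.3.3) was fitted with age as the factor and a variance trend on all 6 libraries, with Benjamini-Hochberg adjustment over all genes. The file gives both P5 columns the same heading, so they are called library a and library b. A further 10 columns of values were not used. Summed FPKM came to 494961 for P5 library a, 485423 for library b, 800484 for Adult replicate 1 and 854713 for replicate 2.

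The fit was tested on simulated data of 14390 genes, of which 100 were changed by 1 and 100 by 2 on the log2 scale. It called 54 of the 100 changed by 1. It called 89 of 100 changed by 2, and 6 of its 149 calls were false. A gene that was not called may therefore still have changed. Far more genes were called in the data themselves, so the simulated rates need not hold there. Named genes are, among called genes that do not overlap between ages and reach 10 FPKM, the 10 largest rises and falls. The same holds among genes within 0.5 in the Adult libraries (rises outside the other cell type lists). Without that filter, the rule also names the 4 smallest p and 2 highest levels among the tested members of each list, called or not, and every ganglion cell gene. Others are stated to be chosen with their values known. Some genes that the rule names are not reported here. The members and lists were chosen with earlier results of these data known. Gene positions are from GENCODE (GRCm38), matched by transcript for 17015 symbols, and promoters from RefSeq (GRCm38.p6). Alternatives changed the pseudocount (0.1), the filter, the scaling, the variance trend and the libraries.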

Additional observations from a re-analysis of the deposited data

How the results depend on the processing

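Genes called higher numbered 3767, and 1709 with equal library totals (TPM) and 2316 with a mean of at least 5 FPKM, where fewer genes were tested. Genes called lower numbered 4843, and 8603 with equal library totals. Leaving out 1 library in turn gave 3074 to 3360 higher and 4121 to 4491 lower. Of 209 named genes, 188 kept their direction and their side of the threshold under every alternative run, 11 lost the call under at least 1, and 10 changed sign under at least 1; none of these 10 was called. With equal library totals the log2 changes became -0.47 for Chrnb3, -0.39 for Fos, -0.54 for Gria2, -0.70 for Jun, -0.55 for Kcnip1 and -0.43 for Nefh. With a common protein-coding total they became 0.23 for Arntl, 0.11 for H2-D1 and 0.17 for Snap25, and with quantile normalization 0.061 for Arntl, 0.016 for H2-D1 and 0.0096 for Hspa5. Leaving out 1 library in turn gave -0.26 to 0.10 for Arntl, -0.015 to 0.54 for Chrnb3, -0.48 to 0.56 for Jun and -0.064 to 0.45 for Kcnip1. The cause was not tested. No paired analysis was possible because the P5 columns carry no replicate number. Depth is unknown, and 2 libraries per age limit the precision.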

Other observations

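Imprinted genes, which are read from the copy of 1 parent, fell more often than they rose between P5 and Adult: 11 of 20 tested were called lower and 3 higher, against 33.7% and 26.2% of all genes, or 14 and 1 with equal library totals. Nnat (neuronatin), a membrane protein of young neurons, measured 804 and 872 FPKM at P5 against 15.6 and 13.4 FPKM in Adult (log2 change -5.76, SE 0.12, adjusted p = 5.63e-06), which was a deeper fall than that of any ganglion cell marker. Zim1 measured 8.33 and 6.41 FPKM at P5 against 0.587 and 0.741 FPKM in Adult, and Ndn (necdin), a brake on proliferation, measured 134 and 126 FPKM at P5 against 62.5 and 67.6 FPKM in Adult (log2 change -0.99, SE 0.10, adjusted p = 4.13e-04). Gnas, the stimulatory G protein gene, changed by -0.86. Impact, a regulator of translation under stress, measured 18.4 and 20.4 FPKM at P5 against 169 and 191 FPKM in Adult (log2 change 3.15, SE 0.11, adjusted p = 2.42e-05). The Adult libraries lay within 0.5 of each other for all 14 called genes.

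Of 12 genes of MHC class I and the interferon response 3 were called higher (25%) and 2 lower (16.7%). The shares of all genes were 26.2% and 33.7%, so the rises were near that share. With equal library totals the counts were 2 and 5. H2-K1, which presents peptides to T cells, measured 0.625 and 0.502 FPKM at P5 against 13.5 and 15.8 FPKM in Adult (log2 change 3.32, SE 0.18, adjusted p = 6.54e-05), and H2-D1, its relative, lay at 34.5 and 33.8 FPKM at P5 against 28.6 and 30.3 FPKM in Adult and was not called, with a sign that turned positive with a common protein-coding total and with quantile normalization. Genes of the 2 loci are near-identical in sequence, so reads may be split between them. Ifitm2, a restriction factor against viruses, measured 18.5 and 19.4 FPKM at P5 against 0.37 and 0.588 FPKM in Adult (log2 change -3.76, SE 0.18, adjusted p = 4.62e-05). Ifit3 measured 0.0404 and 0.0741 FPKM at P5 against 3.04 and 3.52 FPKM in Adult. Of 15 cell cycle genes tested none was called higher and 3 were called lower (20%), under the 33.7% of all genes. Among the 3 was Cdk4 (log2 change -1.27, SE 0.10, adjusted p = 1.89e-04). With equal library totals 8 were called lower, and 5 on the 4 libraries alone. Among the retinal progenitor genes tested, 3 of 12 were called higher (25%, near the 26.2% of all genes) and 1 lower (8.33%). Rax, which Müller glia keep, lay at 0.291 and 0.585 FPKM at P5 against 29.1 and 16.04 FPKM in Adult. The rises became fewer without Adult replicate 2 or P5 library a, and more without either E18 library. Of 13 long and small noncoding RNAs 6 were called higher (46.2%) and 5 lower (38.5%), against 26.2% and 33.7% of all genes. With equal library totals the counts were 6 and 7. The falls became fewer when any of either P5 library, either E18 library or Adult replicate 1 was left out. Rn7sk, which restrains transcription elongation, was listed at 0 at P5 and at 186800 and 213900 FPKM in Adult. Rmrp, the RNA of an endonuclease, measured 3211 and 4126 FPKM at P5 against 32640 and 35280 FPKM in Adult (log2 change 3.22, SE 0.16, adjusted p = 5.00e-05). Both are among the 4 small RNAs that made up 43.2% and 44.3% of summed FPKM in Adult, against 3.5% and 4.3% at P5. The age of the cells and the making of the libraries cannot be told apart here. The values of Rn7sk and Rmrp are therefore not read as changes with age. Miat, which is made by young neurons, measured 87.5 and 108 FPKM at P5 against 8.25 and 8.73 FPKM in Adult (log2 change -3.37, SE 0.14, adjusted p = 2.82e-05).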
